A study of Cymbopogon flexuosus and Cymbopogon winterianus with 4 samples.

Results

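The 171 contigs described here carry the ID prefix of the lemongrass libraries, yet stood higher in citronella leaves. They were chosen from 25576 lemongrass contigs, out of 67826 contigs in both deposited tables, by 2 conditions on their CPM (the count scaled to the library's total count on the lemongrass contigs). A contig had to reach 20 CPM in both citronella libraries, and its lower citronella value had to be at least 4 times its higher lemongrass value. The choice used the citronella and lemongrass values themselves, so the levels and folds of these contigs are a description and carry no test. The citronella group was Cymbopogon winterianus and the lemongrass group was Cymbopogon flexuosus, with 2 leaf RNA libraries each. Plants of both species were grown in field plots under normal conditions, with no treatment in either group, and no age or genotype beyond the species is used here. Nothing in the labels ties the paired libraries of 1 species to different plants, and the spread between them may be technical.

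Lemongrass and citronella are aromatic grasses of the tropics whose leaves store volatile oils. Lemongrass oil is known for citral, the mixture of the aldehydes geranial and neral, and citronella oil for citronellal, citronellol and geraniol. These monoterpenes are built in leaf cells from geranyl diphosphate, and alcohol dehydrogenases, reductases and acyltransferases set which alcohol, aldehyde or ester accumulates. A contig is a stretch of transcript sequence joined from overlapping reads, and may hold a whole transcript, a piece of one or a merger of related copies. The files give contig IDs without gene names or sequences, so no contig can be tied here to scent synthesis or any other function. No member is given a gene name, and no terpene gene list was tested.

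The libraries differed in depth, with 9485822 and 4875674 counts in citronella and 5787640 and 6636226 in lemongrass. In the smallest, a count of 0 would allow up to 3 counts, or 0.615 CPM. The first citronella library is the deepest on these contigs, but in the other table, on citronella contigs, its highest count was 5782, against 33170 in the second citronella library and 37441 and 42804 in the lemongrass libraries. All levels below come from the lemongrass contigs. Levels are not divided by contig length, so they are compared between species for 1 contig, not between contigs as transcript numbers.

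The members were moderately expressed in citronella and low in lemongrass, but never absent there. In citronella they ran from 20.2 to 1906 CPM with a median of 38.0 CPM in the first library, and from 20.3 to 1900 CPM with a median of 48.2 CPM in the second. In lemongrass they ran from 1.04 to 394 CPM with a median of 6.05 CPM in the first library, and from 0.603 to 379 CPM with a median of 5.73 CPM in the second. The lowest lemongrass counts of any member were 6 (first library) and 4 (second library). In a lemongrass library 0 members had a count of 0, and 5 had under 10 counts. The share of all lemongrass contigs with such counts was not computed, so nothing particular to the members is read from this. Together the members took 1.20% and 1.40% of all counts of the citronella libraries, on average 1.30% ± 0.141 (SD, n = 2). In lemongrass they took 0.203% and 0.195%, on average 0.199% ± 0.00531 (SD, n = 2).

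**Figure D1:**
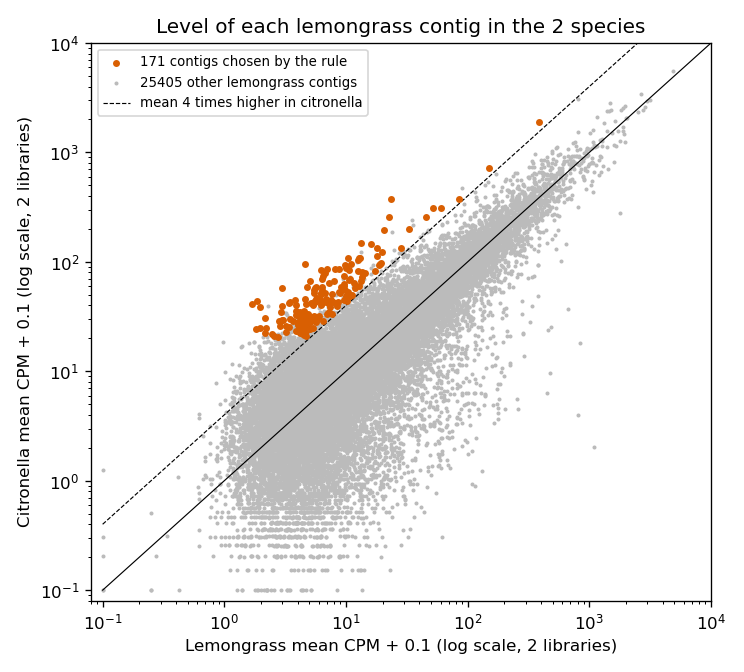
Mean CPM + 0.1 of each lemongrass contig over the 2 citronella libraries (vertical, log scale) against the 2 lemongrass libraries (horizontal, log scale), with equal levels on the solid line and a 4-fold difference on the dashed line. The 171 chosen contigs lie above the dashed line, mostly between 20 and 100 CPM in citronella, and none lies at the left edge where lemongrass counts are near 0.

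Most members were of middling abundance in citronella. Their mean citronella level was below 50 CPM in 102 members, from 50 to below 100 CPM in 49, from 100 to below 500 CPM in 18, and above that in 2. By mean level their median rank among all lemongrass contigs was 4746 in citronella and 16898 in lemongrass. In citronella 10 members were within the leading 1000 contigs and 98 within the leading 5000, while in lemongrass 1 and 6 members were. The 4 most abundant members held 26.0% of the members' summed citronella level and the first alone 14.7%.

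The most abundant member was g.contigcf2067, ranked 20 of all lemongrass contigs in citronella and 336 in lemongrass. It had 1906 and 1900 CPM in the citronella libraries, against 394 and 379 CPM in the lemongrass libraries. The libraries of each species were within a few percent of each other for this contig, and the groups did not overlap, as the rule required. Next came g.contigcf721, with 724 and 707 CPM in the citronella libraries and 144 and 152 CPM in the lemongrass libraries. The fourth, g.contigcf4900, had 366 and 386 CPM in citronella and 88.6 and 79.4 CPM in lemongrass. These 3 abundant members were among those with small folds, their log2 fold changes being 2.33, 2.29 and 2.19 (edgeR, citronella minus lemongrass). Those of all members ran from 2.13 to 4.68 around a median of 2.80, while the median over all 25107 contigs tested was -0.005. The scaling between libraries centres most contigs near 0, so the latter median is no result about the species.

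The third most abundant member, g.contigcf10950, combined a high level with a large fold. It had 388 and 365 CPM in the citronella libraries, and 24.4 and 22.3 CPM in the lemongrass libraries. Its 3685 and 1779 citronella counts and 141 and 148 lemongrass counts gave a 16.4-fold difference, with an exact 95% interval of 14.5 to 18.5 that covers counting error only. It ranked 378 in citronella and 7754 in lemongrass.

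The largest ratio of the lower citronella to the higher lemongrass value was 19.4, in g.contigcf18412. This contig had 96.2 and 93.5 CPM in the citronella libraries, and 4.15 and 4.82 CPM in the lemongrass libraries. The other contigs among the 6 largest ratios had lower levels in citronella, except g.contigcf10950. g.contigcf25145 had 37.8 and 43.9 CPM in the citronella libraries and 1.04 and 2.11 CPM in the lemongrass libraries, where it had 6 and 14 counts. Its ratio of 17.9 therefore rested on few lemongrass counts, and its 24.8-fold difference over pooled counts had an exact 95% interval of 15.9 to 40.9. Its log2 fold change was 4.67, with 4.27 if the first and 5.32 if the second lemongrass library was left out. g.contigcf17126 had 33.9 and 42.5 CPM in citronella and 2.07 and 1.66 CPM in lemongrass. g.contigcf15369 had 50.6 and 64.4 CPM in citronella and 3.80 and 1.96 CPM in lemongrass. The lemongrass values of this contig rested on 22 and 13 counts, and a difference between them beyond counting error was not tested. The last of the 6, g.contigcf249, had 37.5 and 41.6 CPM in citronella and 2.76 and 3.01 CPM in lemongrass.

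**Figure D2:**
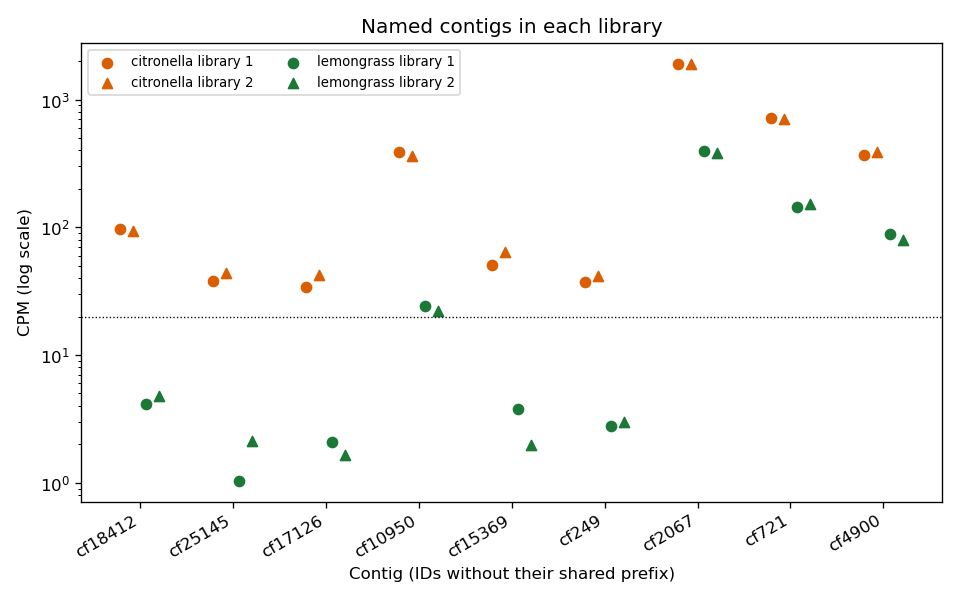
CPM (log scale) of the 9 members with the 6 largest ratios or the 4 highest citronella levels, with citronella libraries in orange and lemongrass libraries in green, library 1 as circles and library 2 as triangles, and 20 CPM as a dotted line. The 3 abundant members at the right are closer between the species than the 6 at the left, and the lemongrass libraries lie farthest apart in g.contigcf25145 and g.contigcf15369.

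Large ratios were uncommon among the members. The ratio was from 4 to below 5 in 72 members, from 5 to below 8 in 77, from 8 to below 16 in 19, and above that in 3, with a median of 5.14. By class of ratio, the median level in citronella changed little and that in lemongrass fell as the ratio rose. The ratio divides by a lemongrass value, so this fall is partly built in and nothing is read from it. Single members differed, with mean citronella levels of 94.9 CPM in g.contigcf18412 and 377 CPM in g.contigcf10950, both of large ratio. The median citronella level was 43.8 CPM in the 72 members with the smallest ratios and 40.9 CPM in the 3 with the largest, and the median lemongrass level was 7.70 CPM in the 72 and 1.87 CPM in the 3. Over pooled counts the median fold was 6.87.

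The conditions divided contigs that had almost the same values. Just inside the level minimum were g.contigcf25244, at 20.2 and 21.5 CPM in citronella and 1.90 and 3.01 CPM in lemongrass, and g.contigcf24312, at 21.1 and 20.3 CPM in citronella and 2.94 and 2.41 CPM in lemongrass. Just outside it was g.contigcf18361, at 19.9 and 26.0 CPM in citronella and 3.80 and 4.97 CPM in lemongrass. Also outside was g.contigcf21389, at 19.8 and 48.6 CPM in citronella and 3.97 and 2.11 CPM in lemongrass. Of the ratio, g.contigcf22865 and g.contigcf18239 were just inside at 4.03 and 4.04, and g.contigcf16468 and g.contigcf11663 just outside at 3.998 and 3.99. The limits thus fell between contigs of near-equal values, and the set is not simply the contigs with the largest folds. Of the contigs just outside, g.contigcf21389 and g.contigcf11663 had log2 fold changes of 3.50 and 3.25, above the members' median of 2.80. Those of g.contigcf18361 and g.contigcf16468 were 2.39 and 2.21, below it.

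By the same rule with the species exchanged, 511 lemongrass contigs stood higher in lemongrass. The 171 members were 2.21% of the 7753 contigs with 20 CPM or more in both citronella libraries, and the 511 were 6.25% of the 8178 with that level in both lemongrass libraries. At a ratio of 2 the numbers were 901 higher in citronella and 1096 higher in lemongrass. At a ratio of 8 they were 22 and 297, and at a ratio of 16 they were 3 and 141. As a share of the contigs higher in lemongrass, those higher in citronella thus became fewer as the ratio asked went up. The 511 contigs took 0.388% ± 0.0148 of the counts in citronella and 4.21% ± 0.0288 in lemongrass (SD, n = 2), so both the number and the summed level of the members were smaller than on the opposite side. On citronella contigs, a separate table with no match of IDs, the citronella side of the rule was met by 877 of 8560 contigs with the level minimum, or 10.2%. The low highest count of the first citronella column was seen in that table, and its part in this number was not tested.

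In the comparison across all contigs, edgeR's quasi-likelihood test called 6817 of 25107 contigs higher in citronella at a Benjamini-Hochberg adjusted p below 0.05, or 27.2%. All 171 members passed the low count filter, which their citronella level alone ensures, and 171 were called. The rule used this contrast, so nothing is read from that count.

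The citronella libraries differed more for the members than for other contigs with 20 CPM or more in both of them. The second library was higher than the first in 119 of 171 members (69.6%), and in 2651 of the 7582 other contigs with 20 CPM or more in both citronella libraries (35.0%). On the log2(CPM + 1) scale, the median difference of the first minus the second library was -0.19 in the members and 0.08 in the other contigs. Over 2-fold gaps were found in 16 members (9.36%), all higher in the second library, and in 44 of the other contigs (0.580%), 41 of them higher in the second. With TMM-scaled CPM the second library was higher in 134 members (78.4%) and in 3767 of the other contigs (49.7%), so the lean of the other contigs depended on the scaling. Libraries were under 1.5-fold apart in 130 members. Since the rule took the lower citronella value, the citronella gap had a part in choosing the members and is not tested. Wider gaps were not particular to citronella. On the log2(CPM + 1) scale, the median absolute gap in lemongrass was 0.220 in the members and 0.092 in the other contigs. In citronella it was 0.259 and 0.156. The members had few lemongrass counts, and the part of counting error was not tested.

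**Figure D3:**
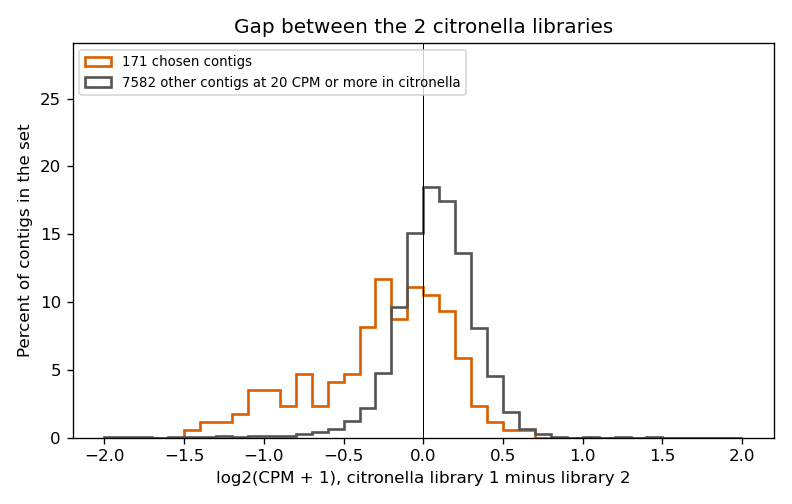
Percent of contigs (vertical) by the difference of the first minus the second citronella library on the log2(CPM + 1) scale (horizontal), for the 171 chosen contigs in orange and the 7582 other contigs at 20 CPM or more in both citronella libraries in grey, with values beyond 2 in either direction drawn in the outer bins. The orange outline has a left shoulder, the members that were higher in the second library.

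The widest citronella gaps were in g.contigcf19912 and g.contigcf25132. g.contigcf19912 had 30.9 and 84.5 CPM in the citronella libraries and 6.74 and 4.22 CPM in the lemongrass libraries. g.contigcf25132 had 36.4 and 97.0 CPM in citronella and 5.70 and 4.22 CPM in lemongrass. In both, the second citronella library was over 2-fold above the first, and the first was still above both lemongrass libraries. Their log2 fold changes moved by over 1.5 times on the linear scale when 1 citronella library was left out. For g.contigcf19912 the value was 3.41, with 4.06 if the first and 2.51 if the second was left out. For g.contigcf25132 it was 3.76, with 4.40 if the first and 2.88 if the second was left out.

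The widest lemongrass gaps were in g.contigcf15087 and g.contigcf19389. g.contigcf15087 had 44.8 and 72.6 CPM in the citronella libraries and 8.81 and 2.41 CPM in the lemongrass libraries, where its counts were 51 and 16. g.contigcf19389 had 28.7 and 58.9 CPM in citronella and 2.94 and 0.603 CPM in lemongrass, from 17 and 4 counts. Both had their lower citronella value in the first library and their higher lemongrass value in the first library. Leaving out either lemongrass library moved these folds by over 1.5 times on the linear scale. The log2 fold change of g.contigcf19389 was 4.68, with 6.14 if the first and 3.93 if the second lemongrass library was left out, and with 5.20 if the first and 4.06 if the second citronella library was left out. That of g.contigcf15087 was 3.44, with 4.60 if the first and 2.78 if the second lemongrass library was left out. It moved less with citronella libraries, to 3.84 if the first and 3.04 if the second was left out.

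In members with a wide citronella gap, the lemongrass gap was mostly of the opposite sign. Of the 16 members over 2-fold higher in the second citronella library, 15 were higher in the first lemongrass library than in the second. Over these 16 the median lemongrass gap was 0.31 on the log2(CPM + 1) scale. Some of the gaps were small, such as 0.02 in g.contigcf18146 and 0.04 in g.contigcf18331. Among all 171 members, 72 (42.1%) were higher in the second lemongrass library. The share among other contigs with such a citronella gap was not computed. Of the 52 members whose first citronella library was at or above the second, 25 were higher in the first lemongrass library, with a median of -0.01. Across the 171 members the gaps of the species correlated with Pearson's r = -0.36 and Spearman's rho = -0.35, and across the 56 members with 100 or more lemongrass counts r was -0.42 and rho -0.41. Across the 7582 other contigs with 20 CPM or more in both citronella libraries r was -0.21 and rho -0.15. The points of each correlation come from the same 4 libraries, contigs are not independent, and the rule used these values.

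**Figure D4:**
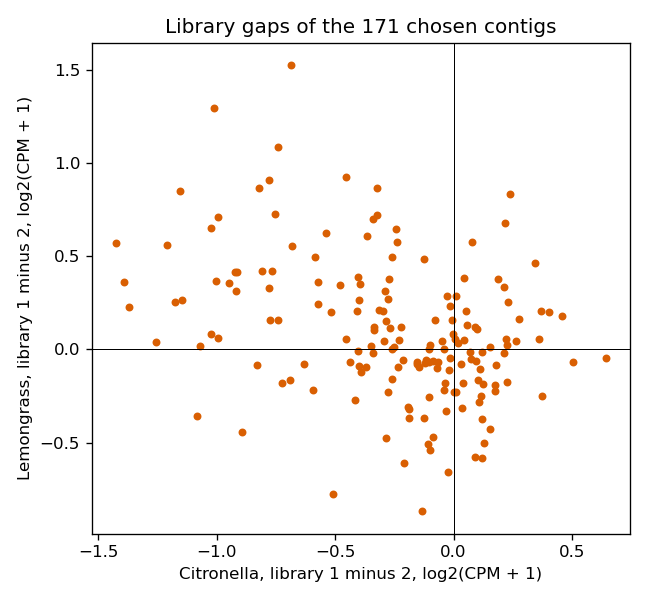
Difference of library 1 minus library 2 on the log2(CPM + 1) scale in citronella (horizontal) and in lemongrass (vertical), 1 point for each of the 171 chosen contigs. The points at the left, members higher in the second citronella library, lie mostly above 0 in lemongrass.

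The size of the set depended on the first citronella library more than on any of the other 3. Without it the rule chose 432 contigs, against 215 without the second citronella library, 254 without the first lemongrass library and 212 without the second. Each of these sets held all 171 members, as it must, since fewer conditions were asked. In the left-out first citronella library, 301 of the 432 reached 20 CPM and 201 were at least 4 times the higher lemongrass value, while all 432 were above it. Their median ratio in that library was 3.89 and the lowest was 1.22. For the 215 contigs chosen without the second citronella library, the left-out library gave a median ratio of 5.88, and all 215 were above the higher lemongrass value in it. The contigs chosen without a lemongrass library were also all higher in citronella than in the library left out, 254 of 254 and 212 of 212. A left-out library thus never put such a contig lower in citronella, but it often put the ratio below 4, most often in the first citronella library. Nothing is read from this direction, since each set included the 171 members. For a left-out citronella library, the lemongrass values were those that the rule had already asked to be low. How often all contigs would be higher in citronella in this way was not computed.

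From ID 2001 on, the numbers in the contig IDs ran with the level in lemongrass, a property that the rule did not use as such. In IDs 2001 to 3000 the median level was 201 CPM in citronella and 228 CPM in lemongrass, and the lemongrass median fell in each later range of 1000 IDs. Earlier IDs broke this order. The lemongrass median was 16.8 CPM in IDs 1 to 1000, with 7 members, and 27.0 CPM in IDs 1001 to 2000, with 4 members. Over all 25576 contigs the ID number correlated with the mean CPM by a Spearman's rho of -0.64 in citronella and -0.84 in lemongrass. No source used here says how the IDs were assigned. Members had mostly high numbers, with 14 among IDs 1 to 5000, 12 among 5001 to 10000, 34 among 10001 to 15000, 63 among 15001 to 20000, 43 among 20001 to 25000 and 5 above. Among contigs with 20 CPM or more in both citronella libraries, the members were 0.379% of the 3694 in the first of these ranges, 21.9% of the 288 from 15001 to 20000 and 55.1% of the 78 from 20001 to 25000. The median lemongrass level of all contigs was 5.52 CPM in IDs 15001 to 20000 and 3.20 CPM in IDs 20001 to 25000. The ratio asked is more easily met at such levels, so nothing is read from these shares. The median ID number was 17028 in the 171 members and 5021 in the 511 contigs of the exchanged rule.

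Other contigs of the same lemongrass level, which the rule asked to be low in its members, had similar numbers. Below 5 CPM in lemongrass, the median ID number was 20872 in 67 members and 21318.5 in 7472 other contigs. From 5 to below 10 CPM it was 16379 in 64 members and 15682 in 5489 others, from 10 to below 20 CPM it was 13409 in 29 and 11324 in 3935, and at 20 CPM or more it was 5295 in 11 and 5221 in 8509. At a given lemongrass level, members were thus numbered much like other contigs, with the widest distance in the class from 10 CPM.

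**Figure D5:**
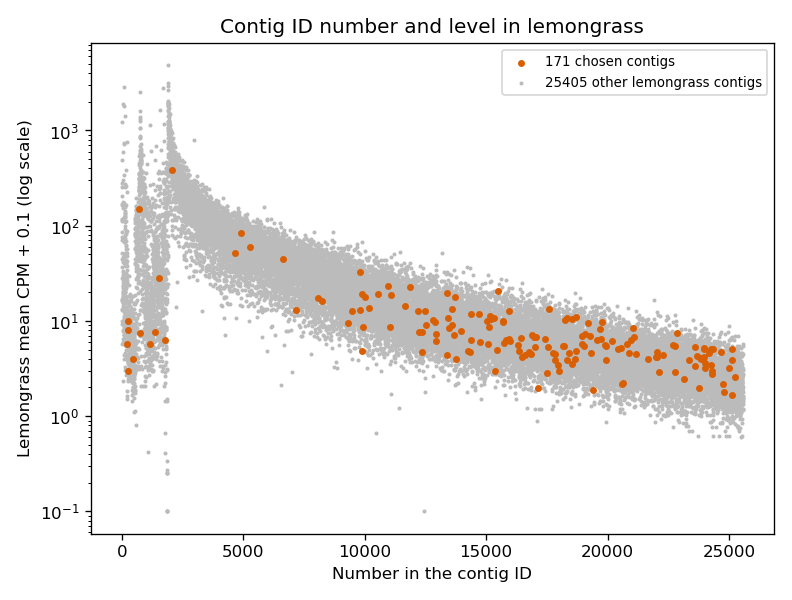
Mean lemongrass CPM + 0.1 (vertical, log scale) against the number in the contig ID (horizontal), with the 171 chosen contigs in orange and 25405 other lemongrass contigs in grey. From ID 2001 on the grey band falls, and the chosen contigs lie inside it and mostly at high numbers.

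In 4 pairs of members the ID numbers followed each other directly. The number of such pairs that randomly placed members would give was not computed. g.contigcf248 had 64.7 and 69.3 CPM in citronella and 6.22 and 9.49 CPM in lemongrass, beside the values of g.contigcf249 given above. g.contigcf12944 had 44.9 and 45.9 CPM in citronella and 5.18 and 6.78 CPM in lemongrass, and g.contigcf12945 had 63.0 and 64.2 CPM in citronella and 7.95 and 6.33 CPM in lemongrass. Over pooled counts the fold was 8.32 in g.contigcf248 and 13.4 in g.contigcf249, and 7.50 in g.contigcf12944 and 8.96 in g.contigcf12945. The other pairs, g.contigcf13409 with g.contigcf13410 and g.contigcf15693 with g.contigcf15694, ran from 44.2 to 147 CPM in citronella and from 7.99 to 21.1 CPM in lemongrass. The 4 pairs were chosen for their numbers after the members were known. Whether neighbouring IDs hold related sequences is not known here.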

How the data were processed

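The authors deposited whole-number counts per contig, unnormalized as far as their differing totals show, and the file headers name 4 libraries in each of 2 tables. Per the labels' protocols, an Illumina TruSeq kit was used on total RNA. HISAT2, HTSeq, SAMtools, edgeR, Trimmomatic 0.32 and FastQC 0.11.2 are listed, without their roles, per the submitters' processing notes. No source used here gives the origin of the contigs or the fate of reads that match several of them, so counts of near-identical contigs could be split. How the first citronella column came to its low highest count on citronella contigs is likewise not stated.

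CPM was computed on column totals. The species were compared on all lemongrass contigs with edgeR 4.0.16 in R 4.3.3 (filterByExpr, TMM, glmQLFit and glmQLFTest, 2 against 2 libraries, Benjamini-Hochberg). DESeq2 1.42.0 was used as an alternative. On simulated data the edgeR fit called 54 of 100 contigs set 2-fold higher and 97 of 100 set 4-fold higher. It also called 5 of 24907 unchanged contigs. Intervals and floors cover counting error only. Named contigs were the 6 largest ratios, the 4 highest citronella levels, the 2 widest library gaps per species and the 2 contigs nearest each side of each condition. Members and naming rules were chosen with earlier results of these data known. The ID numbers, the adjacent pairs and the library gaps of both species were looked at after seeing the data.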

Additional observations from a re-analysis of the deposited data

How the results depend on the processing

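The number of contigs meeting the rule followed its limits. It was 280 at 10 CPM, 52 at 50 CPM, 372 at a ratio of 3, 22 at a ratio of 8 and 377 with species means, against 171. It was 183, 212 and 178 with TMM, upper-quartile and RLE library sizes, which shared 169, 171 and 166 contigs with the 171. With 1 library left out it ran from 212 to 432. Without the most abundant member the share of counts was 1.11% in citronella and 0.160% in lemongrass. With 1 library left out it ran from 1.20% to 1.40% in citronella and from 0.195% to 0.203% in lemongrass. The median log2 fold change of the members ran from 2.64 to 3.02 with 1 library left out, the ends being the fits without the second and the first citronella library, and from 2.77 to 2.88 under the other settings. In fits without 1 library of a species, the lone library was assumed to vary like those of the other species. All 171 members were called in each fit, as the rule makes likely. Contigs called higher in citronella numbered 6817, with 5090 by DESeq2 and from 5000 to 7002 with 1 library left out. Under upper-quartile scaling they numbered 7473.

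Same-numbered libraries share only a number. With the replicate block, 6394 contigs were called higher in citronella, 171 members among them. Differences between replicates of the species correlated at -0.12 over all contigs tested, so the crossed numbers were also tried, after seeing the data, and gave 7228 calls. In the fits other than the crossed one the named contigs kept their direction, and 184 of their 210 alternative log2 fold changes moved by less than 1 SE. Few lemongrass counts, a median of 35 and 38 per member, limit the precision of single ratios.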
